A study of Homo sapiens with 32 samples.

Results

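The 10 circadian clock genes described here were *PER1*, *PER2*, *PER3*, *CRY1*, *CRY2*, *NR1D1*, *NR1D2*, *DBP*, *ARNTL*, and *BHLHE40*, chosen by name for their place in the clock by a rule that used no measured value, although earlier results of these data were known. They are 10 of the 25498 gene symbols in the table, and 10 of 10 were among the 16995 genes with enough reads to be tested. RNA-Seq was performed on LNCaP cells, an androgen-responsive prostate cancer line that originated from metastatic tissue, in 8 groups of 4 libraries. Cells of 1 group grew in 10% FBS (fetal bovine serum). The remaining cells were changed to 10% CSS, serum that charcoal has depleted of steroids, and were left without ligand or given 100 ng/mL EGF or NRG-1 the next day for 5 minutes, 1 hour, or 4 hours. EGF is a ligand of EGFR, and NRG-1 is a ligand of HER3 and HER4, whose partner in signaling is HER2. A single cell line was used, and the cells were not synchronized by any step that the labels name.

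The circadian clock is a transcriptional feedback loop that runs in most cells. A dimer of ARNTL (also called BMAL1) with CLOCK or NPAS2 binds E-boxes and activates the *PER* and *CRY* genes, whose protein products then inhibit the dimer. In a linked loop the nuclear receptors encoded by *NR1D1* and *NR1D2* (REV-ERBα and REV-ERBβ) repress *ARNTL*, which the ROR receptors activate, through a shared element in its promoter. BHLHE40 (DEC1) competes for E-boxes, and DBP carries the rhythm to output genes that hold a D-box. *PER1* and *PER2* also belong to the genes that cultured cells induce quickly when serum or growth factors are added, by a route that does not need the loop.

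Letters that match the elements named for the loop could be read in the promoters of several of these genes, and the stretches below show such matches. Whether any clock protein binds them in these cells was not tested. Promoter sequences, from 250 bases before to 50 bases after a start site, came from RefSeq (GRCh38.p14), whereas the deposited expression values were made on hg19, so that genes were matched by symbol and not by position. All 10 genes matched, with 14 promoters in total, and *ARNTL* was listed as *BMAL1*. Capitals mark an E-box (CACGTG), an E-box variant (CACGTT), a D-box (TTATGTAA or TTACGTAA), or a ROR element (TAGGTCA or TGGGTCA), read on either strand.
*PER1*, chr17:8152545-8152604 (minus strand), E-box: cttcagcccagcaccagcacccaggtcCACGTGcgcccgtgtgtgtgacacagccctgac
*PER2*, chr2:238288791-238288820 (minus strand), E-box variant: cggcgcgcgcggtCACGTTttccactatgt
*PER2*, chr2:238288596-238288625 (minus strand), D-box across the start site: ccccgctgcggcTTACGTAAccgccgccgg
*PER3*, chr1:7784091-7784150 (plus strand), D-box: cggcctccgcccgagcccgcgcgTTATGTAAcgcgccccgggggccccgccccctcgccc
*NR1D2*, chr3:23945911-23946030 (plus strand), D-box, E-box, ROR element, and E-box: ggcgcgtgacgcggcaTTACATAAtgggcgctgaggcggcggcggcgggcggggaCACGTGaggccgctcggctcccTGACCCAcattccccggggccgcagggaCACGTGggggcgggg
*ARNTL*, chr11:13277809-13277838 (plus strand), ROR element: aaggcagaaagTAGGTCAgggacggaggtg

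The *PER3* stretch lay outside annotated transcripts of its strand, and the *PER1* and *NR1D2* stretches lay within transcripts of their strand but in no exon. The *PER2* and *ARNTL* stretches overlapped an annotated exon of their strand (GENCODE v44). The *NR1D2* stretch preceded the downstream of its start sites. An E-box was present in the promoters of 3 of the 10 genes (*BHLHE40*, *NR1D2*, and *PER1*), beside 7.26% of all 35116 promoters in the RefSeq table. The E-box variant was present in 4 (*CRY1*, *CRY2*, *NR1D1*, and *PER2*), beside 5.34% of all promoters. A D-box was present in 3 (*NR1D2*, *PER2*, and *PER3*), beside 1.01%, and a ROR element in 3 (*ARNTL*, *CRY2*, and *NR1D2*), beside 5.69%. The CREB element TGACGTCA was present in 0 of the 10 genes, beside 1.85% of all promoters. Its shorter core TGACG, which the full element contains, was present in 4 (*CRY1*, *CRY2*, *NR1D2*, and *PER2*), beside 24.6%. Each match is a description of letters in the window. The genes have unequal numbers of promoters in the table, so the 2 kinds of share are not counted in the same way.

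Each library held between 63822654 and 92401724 expected counts, and the counts of a clock gene in 1 library ranged from 215 to 12238. Counting error, as a share of the count, is largest at the low end of this range. All 9 LNCaP markers examined, among them *KLK2* and *KLK3*, exceeded 1 TPM (a level normalized for transcript length and library total) in every library. Of 13 markers of other cell types, 8 never exceeded 0.1 TPM, and *CD68* and *COL1A1* exceeded 1 TPM throughout. Replicates 1 and 2 of each group formed batch 1 and replicates 3 and 4 formed batch 2. *PER2*, *PER3*, *CRY2*, and *NR1D1* were higher in batch 1 in all 8 groups, and *PER3* in CSS, for example, averaged 43.9 CPM (counts scaled to library size) in batch 1 and 32.8 in batch 2. The batch was therefore a term in each fit. For *NR1D1*, the expected counts were not whole in 32 of 32 libraries, as happens when RSEM divides reads between gene models. Its level is therefore less certain than that of the other 9 genes, whose counts were whole in all libraries. Bulk RNA does not tell apart a change in every cell from a change in the share of cells that express a gene.

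All 10 genes were expressed without added ligand. On the TPM scale, which allows genes to be compared, *NR1D2* had the highest level in CSS (38.2 ± 3.47 TPM), followed by *CRY1* (16.0 ± 0.735 TPM), *PER3* (10.7 ± 2.39 TPM), and *BHLHE40* (9.25 ± 0.963 TPM) (mean ± SD, n = 4). The lowest levels were those of *PER2* (4.65 ± 1.08 TPM) and *PER1* (3.93 ± 0.700 TPM). *DBP* (7.51 ± 1.51 TPM), *CRY2* (6.81 ± 1.61 TPM), *ARNTL* (6.33 ± 0.243 TPM), and *NR1D1* (4.86 ± 0.805 TPM) lay between them, and each of these neighbors differed from the next by less than the larger of their SDs, apart from the step from *ARNTL* to *NR1D1*. Between its lowest and highest library over all groups, *PER1* spanned 1.64 to 15.6 TPM and *NR1D2* 21.2 to 47.3 TPM. Values below are CPM with library sizes scaled by the TMM method, which compare 1 gene across libraries.

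**Figure D1:**
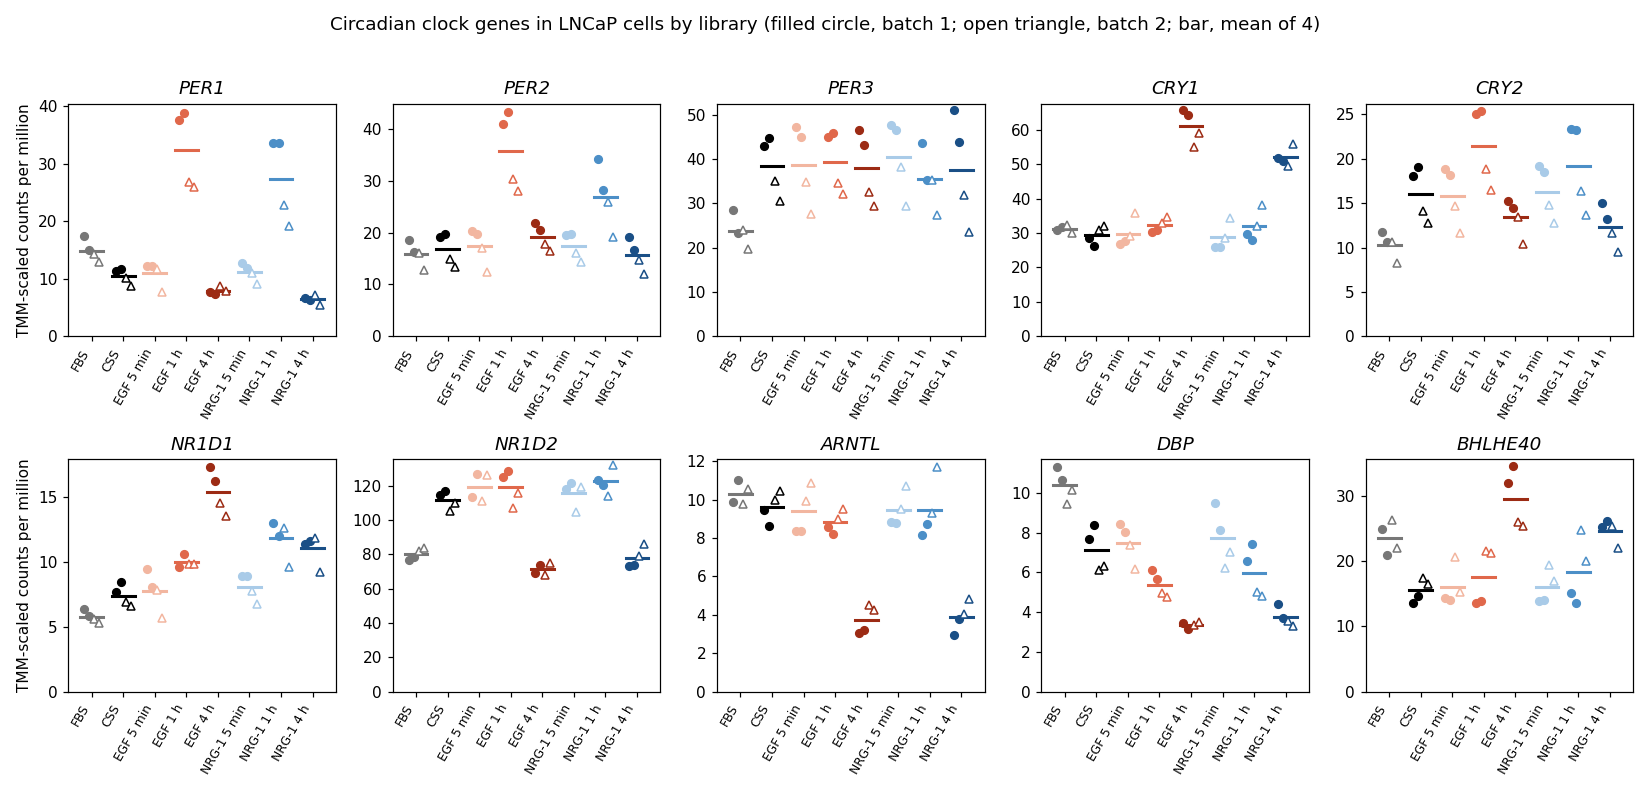
Level of each clock gene (y axis, TMM-scaled CPM, from 0) in the 4 libraries of each of the 8 groups (x axis), with circles for batch 1, triangles for batch 2, and a bar at the mean of the 4 libraries. *PER1* and *PER2* peak in the 1 hour groups, *CRY1* and *BHLHE40* are highest in the 4 hour groups, and *ARNTL* and *DBP* are lowest there.

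No clock gene passed the test at 5 minutes. With EGF, 0 of 10 passed the test (edgeR quasi-likelihood test, adjusted *P* below 0.05), beside 0.00588% of all genes tested, and 0 of 10 had an unadjusted *P* below 0.05. With NRG-1, 0 of 10 passed, beside 0% of all genes, and again 0 had an unadjusted *P* below 0.05. The counts were 0 with DESeq2 and with limma as well. *PER1* averaged 10.5 ± 1.32 CPM in CSS, 11.0 ± 2.14 CPM after 5 minutes of EGF, and 11.2 ± 1.62 CPM after 5 minutes of NRG-1.

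At 1 hour, both ligands raised the period genes *PER1* and *PER2* and the REV-ERBα gene *NR1D1*. In the edgeR fit, *CRY2* was also higher and *DBP* lower with EGF. Their NRG-1 differences had the same signs but did not pass in that fit. With EGF, 4 of 10 genes were higher and 1 was lower than in CSS, beside 6% and 3.51% of all genes tested. With NRG-1, 3 of 10 were higher, beside 4.45%, and 0 were lower, beside 2.28%. The median log2 fold change of the 10 genes was 0.15 with EGF (all genes, -0.013) and 0.18 with NRG-1 (all genes, -0.0045). Both ligands were compared with the same 4 CSS libraries, so their differences from CSS are not independent of each other.

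*PER1* encodes a repressor of the ARNTL dimer and gave the largest response of the 10 genes at 1 hour. Its values in CSS were 11.4, 11.6, 10.1, and 8.73 CPM in replicates 1 to 4. They were 37.6, 38.8, 26.8, and 26.0 CPM after 1 hour of EGF and 33.6, 33.6, 22.9, and 19.1 CPM after 1 hour of NRG-1. Each library treated for 1 hour lay above every CSS library, and in both ligands the batch 1 libraries were the higher ones. The fitted rise was 3.06-fold with EGF (log2 change 1.61, SE 0.13, adjusted *P* = 8.18e-11). With NRG-1 it was 2.58-fold (log2 change 1.37, SE 0.13, adjusted *P* = 4.55e-09). Within batches, the fold was 3.33 in batch 1 and 2.80 in batch 2 with EGF, and 2.92 and 2.23 with NRG-1.

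*PER2*, the partner repressor, followed the same course with a smaller rise. In CSS it was at 19.1, 19.8, 14.9, and 13.5 CPM. After 1 hour of EGF it was at 40.9, 43.3, 30.3, and 28.1 CPM, above all CSS libraries. After 1 hour of NRG-1 it was at 34.3, 28.3, 25.9, and 19.1 CPM, and the lowest of these libraries, replicate 4, overlapped the highest of CSS, although all 4 exceeded the CSS library of the same number. The log2 fold change was 1.08 with EGF (SE 0.096, adjusted *P* = 8.21e-10) and 0.68 with NRG-1 (SE 0.096, adjusted *P* = 8.58e-06). *PER1* and *PER2* with EGF and *PER1* with NRG-1 exceeded the fold limit of the study (a log2 fold change beyond 1), that is, 2 and 1 of 10 genes, beside 1.72% and 0.989% of all genes.

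*PER3*, the third period gene, gave no such rise. Its mean was 38.3 ± 6.71 CPM in CSS, 39.3 ± 7.10 CPM after 1 hour of EGF, and 35.4 ± 6.68 CPM after 1 hour of NRG-1. The log2 fold changes were 0.035 with EGF (95% CI -0.20 to 0.27) and -0.11 with NRG-1 (95% CI -0.34 to 0.12). These intervals exclude a rise of the size seen in *PER1*.

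*NR1D1*, the REV-ERBα gene, stood at 7.64, 8.41, 6.88, and 6.55 CPM in CSS. It was at 9.56, 10.6, 9.83, and 9.84 CPM after 1 hour of EGF and at 13.0, 12.0, 12.6, and 9.61 CPM after 1 hour of NRG-1. All treated libraries lay above all CSS libraries, and the log2 fold changes were 0.44 (SE 0.094, adjusted *P* = 0.00138) and 0.68 (SE 0.094, adjusted *P* = 5.23e-06). Its paralog *NR1D2* moved from 112 ± 5.02 CPM to 119 ± 9.65 CPM with EGF (adjusted *P* = 0.511) and 122 ± 7.61 CPM with NRG-1 (adjusted *P* = 0.293), and neither difference passed.

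The cryptochrome gene *CRY2* was at 16.0 ± 3.02 CPM in CSS and at 21.5 ± 4.43 CPM after 1 hour of EGF, which was a rise (log2 change 0.42, SE 0.095, adjusted *P* = 0.00257). *DBP*, the D-box activator, was at 7.11 ± 1.09 CPM in CSS and fell with EGF to 5.38 ± 0.628 CPM (log2 change -0.40, SE 0.089, adjusted *P* = 0.00228). With NRG-1, *CRY2* had a log2 fold change of 0.24 (adjusted *P* = 0.146) and *DBP* of -0.26 (adjusted *P* = 0.0749), and neither passed. The difference between the ligands was not significant for either gene (adjusted *P* = 0.600 and 0.601). The 1 hour EGF calls of *NR1D1*, *CRY2*, and *DBP* were lost in each of 3 limma fits on log2 TPM (adjusted *P* = 0.0544 to 0.0881, 0.0563 to 0.0910, and 0.0766 to 0.118), and those of *CRY2* and *DBP* without the batch term (adjusted *P* = 0.287 and 0.0960). With the replicate number as a block, which pairs libraries of the same number, both passed with NRG-1 (*CRY2*, adjusted *P* = 0.00447; *DBP*, adjusted *P* = 0.0427), and 5 rather than 3 of the 10 genes were called. *CRY2* with NRG-1 also passed without NRG-1 replicate 4 (adjusted *P* = 0.0451) and in batch 1 alone (adjusted *P* = 0.00683). *DBP* with NRG-1 also passed without NRG-1 replicate 2 (adjusted *P* = 0.0289) and in the DESeq2 Wald test (adjusted *P* = 0.0445).

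*CRY1*, *ARNTL*, and *BHLHE40* did not pass at 1 hour with either ligand. For *BHLHE40* the batches gave different ratios, a difference that was not tested. In batch 1 the ratio to CSS was 0.973 with EGF and 1.01 with NRG-1, and in batch 2 it was 1.26 and 1.32. The pooled log2 fold changes were 0.16 (adjusted *P* = 0.649) and 0.23 (adjusted *P* = 0.481).

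**Figure D2:**
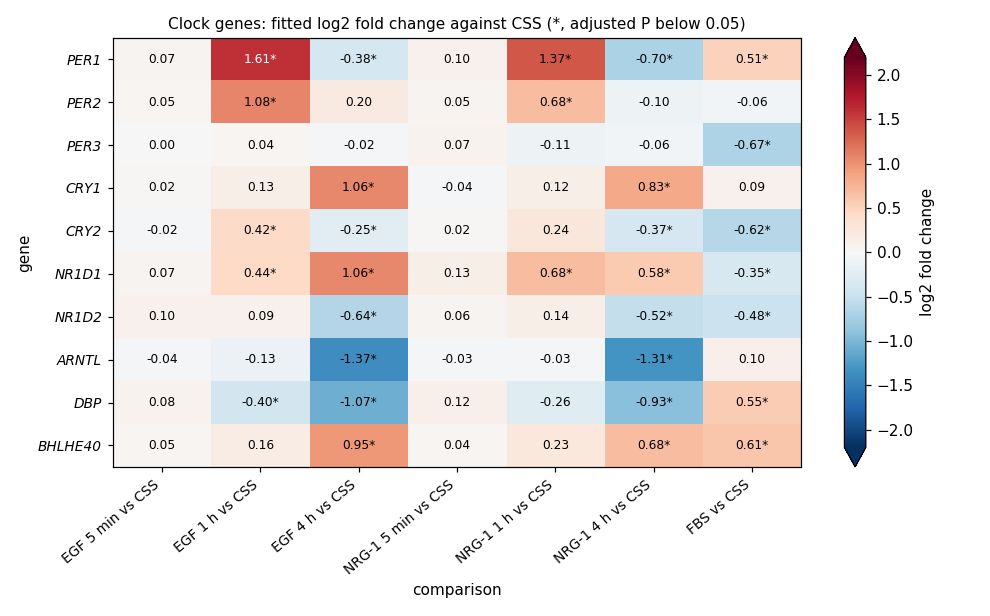
Fitted log2 fold change of each clock gene (rows) against CSS for each ligand and time and for FBS (columns), printed in the cell with an asterisk where the adjusted *P* value was below 0.05, with red for higher and blue for lower than CSS. *PER1* and *PER2* are red at 1 hour, and at 4 hours *CRY1*, *NR1D1*, and *BHLHE40* are red while *ARNTL*, *DBP*, and *NR1D2* are blue with both ligands.

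At 4 hours the picture had changed. *PER1* had returned to below its CSS level, *CRY1*, *BHLHE40*, and *NR1D1* had risen, and *ARNTL*, *DBP*, *NR1D2*, and *CRY2* had fallen. With each ligand 3 of 10 genes were higher and 5 were lower than in CSS. Of all genes tested, 24.6% were higher and 24.6% were lower with EGF, and 21.6% were higher and 21% were lower with NRG-1, so the number of clock genes that rose lies near this background. The median log2 fold change of the 10 genes was -0.13 with EGF (all genes, -0.022) and -0.24 with NRG-1 (all genes, -0.010). With EGF, 4 of 10 exceeded the fold limit, beside 9.56% of all genes, and with NRG-1 1 of 10 did, beside 7.41%. The labels do not give the time at which untreated CSS cells were collected, so hours since the change of medium and hours of ligand cannot be told apart in the comparison with CSS. Summed TPM of the markers of other cell types was 8.26 to 10.86 in CSS, 16.73 to 19.45 after 4 hours of EGF, and 9.94 to 14.92 after 4 hours of NRG-1, mostly through *CD68*, which was at 3.22 to 3.98, 12.16 to 16.21, and 6.53 to 10.84 TPM, while 8 of the 13 markers never exceeded 0.1 TPM in any library. The part of these markers in the clock results was not tested.

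The activator *ARNTL* showed the largest change at 4 hours. It was at 9.47, 8.65, 10.0, and 10.4 CPM in CSS. After 4 hours it was at 3.06, 3.22, 4.49, and 4.24 CPM with EGF and at 2.96, 3.79, 4.03, and 4.82 CPM with NRG-1. All 8 treated libraries lay far below the lowest CSS library, and the fitted level was 0.387 of CSS with EGF (log2 change -1.37, SE 0.094, adjusted *P* = 6.89e-13) and 0.403 of CSS with NRG-1 (log2 change -1.31, SE 0.094, adjusted *P* = 2.82e-12). *ARNTL* had not passed at 1 hour, where its log2 fold change was -0.13 with EGF (95% CI -0.31 to 0.056) and -0.030 with NRG-1 (95% CI -0.21 to 0.15).

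*CRY1*, a repressor of the ARNTL dimer, moved the opposite way. It was at 28.5, 26.2, 30.7, and 32.0 CPM in CSS, at 65.6, 64.2, 55.0, and 59.1 CPM after 4 hours of EGF, and at 51.9, 50.9, 49.4, and 55.9 CPM after 4 hours of NRG-1. Neither ligand group overlapped CSS, although they overlapped each other, and the rise was 2.09-fold with EGF (log2 change 1.06, SE 0.085, adjusted *P* = 1.79e-11) and 1.77-fold with NRG-1 (log2 change 0.83, SE 0.085, adjusted *P* = 3.86e-09). Its paralog *CRY2* had the contrary direction, with means of 16.0 ± 3.02 CPM in CSS, 13.4 ± 2.12 CPM with EGF, and 12.4 ± 2.35 CPM with NRG-1. The fall of *CRY2* was significant with NRG-1 (log2 change -0.37, SE 0.096, adjusted *P* = 0.00224) and with EGF (log2 change -0.25, SE 0.095, adjusted *P* = 0.0338), and all 4 libraries of each ligand lay below the CSS library of the same number. With EGF the call was lost on leaving out EGF replicate 1 (adjusted *P* = 0.0710), 2 (adjusted *P* = 0.107), or 4 (adjusted *P* = 0.110), or CSS replicate 2 (adjusted *P* = 0.0774) or 3 (adjusted *P* = 0.0824), and in each limma fit (adjusted *P* = 0.0977 to 0.137). In edgeR both *CRY2* calls were lost without the batch term (adjusted *P* = 0.318 with EGF and 0.146 with NRG-1). They were also lost in batch 2 alone (adjusted *P* = 0.649 and 0.280).

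Of the REV-ERB genes, which repress *ARNTL*, *NR1D1* rose and *NR1D2* fell. *NR1D1* was at 17.3, 16.2, 14.5, and 13.5 CPM after 4 hours of EGF and at 11.4, 11.6, 11.8, and 9.23 CPM after 4 hours of NRG-1, and every one of these libraries exceeded those of CSS. Its log2 fold change was 1.06 with EGF (SE 0.094, adjusted *P* = 1.42e-10) and 0.58 with NRG-1 (SE 0.094, adjusted *P* = 8.92e-06). *NR1D2*, the most abundant of the 10 transcripts, was at 114, 117, 105, and 110 CPM in CSS. It was at 68.9, 73.9, 67.7, and 74.9 CPM with EGF and at 73.0, 73.5, 78.7, and 85.9 CPM with NRG-1. Both ligand groups lay below all CSS libraries and overlapped each other. The level was 0.640 of CSS with EGF (log2 change -0.64, SE 0.066, adjusted *P* = 2.98e-09) and 0.698 of CSS with NRG-1 (log2 change -0.52, SE 0.066, adjusted *P* = 2.06e-07).

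The output gene *DBP* was lower at 4 hours than at 1 hour with each ligand. It was at 7.69, 8.36, 6.10, and 6.30 CPM in CSS, at 3.45, 3.13, 3.37, and 3.51 CPM after 4 hours of EGF, and at 4.40, 3.68, 3.54, and 3.29 CPM after 4 hours of NRG-1. No treated library reached the CSS range, and the log2 fold changes were -1.07 (SE 0.092, adjusted *P* = 8.93e-11) and -0.93 (SE 0.092, adjusted *P* = 2.10e-09). *BHLHE40*, the E-box repressor, was at 13.6, 14.7, 17.4, and 16.5 CPM in CSS, at 32.0, 34.6, 26.0, and 25.4 CPM with EGF, and at 25.2, 26.2, 25.3, and 22.0 CPM with NRG-1. It rose with both ligands (log2 fold change 0.95, adjusted *P* = 4.46e-06 with EGF, and 0.68, adjusted *P* = 4.31e-04 with NRG-1). The rise was larger in batch 1 (2.35-fold with EGF and 1.81-fold with NRG-1) than in batch 2 (1.52-fold and 1.40-fold), and that difference was not tested.

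*PER1* at 4 hours was at 7.65, 7.38, 8.75, and 7.95 CPM with EGF, where replicate 3 of EGF lay just above replicate 4 of CSS, and at 6.58, 6.38, 7.24, and 5.36 CPM with NRG-1, below all CSS libraries. The fall below CSS was significant with NRG-1 (log2 change -0.70, SE 0.13, adjusted *P* = 8.70e-05) and with EGF (log2 change -0.38, SE 0.13, adjusted *P* = 0.0175). With EGF the fold was 0.654 in batch 1 and 0.886 in batch 2, and the call was lost on leaving out EGF replicate 1 (adjusted *P* = 0.0758), EGF replicate 2 (adjusted *P* = 0.0894), or CSS replicate 3 (adjusted *P* = 0.0528), and in each limma fit (adjusted *P* = 0.0511 to 0.0911). In edgeR the EGF call was also lost without the batch term (adjusted *P* = 0.0657). In batch 2 alone the calls with EGF (adjusted *P* = 0.678) and NRG-1 (adjusted *P* = 0.0833) were both lost. *PER2* was back near its CSS level of 16.8 ± 3.11 CPM, at 19.1 ± 2.48 CPM with EGF (log2 fold change 0.20, adjusted *P* = 0.0946) and 15.6 ± 3.02 CPM with NRG-1 (log2 fold change -0.10, adjusted *P* = 0.424). With the replicate block the EGF difference of *PER2* passed (adjusted *P* = 0.0102), as it did in the edgeR fit of the compared groups alone (adjusted *P* = 0.0184). All 4 *PER2* values with EGF lay above the CSS library of the same number, and all 4 with NRG-1 lay below it. *PER3* again did not pass, with log2 fold changes of -0.024 (95% CI -0.25 to 0.21) and -0.058 (95% CI -0.29 to 0.17).

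The change from 1 hour to 4 hours was also tested without the CSS libraries. The labels name a single untreated CSS group and give no collection time or time of day for any group. Hours of ligand, hours since the change of medium, and time of day therefore cannot be told apart in this comparison either. With EGF, 3 of 10 genes were higher at 4 hours than at 1 hour and 6 were lower, beside 22.5% and 21.5% of all genes. With NRG-1, 2 were higher and 6 were lower, beside 19% and 18.5%. The median log2 fold change of the 10 genes was -0.67 with EGF (all genes, 0.0045) and -0.64 with NRG-1 (all genes, -0.010). *PER1* fell by 2.00 on the log2 scale with EGF (SE 0.13, adjusted *P* = 4.74e-13) and by 2.07 with NRG-1 (SE 0.13, adjusted *P* = 3.93e-13). *PER2*, *CRY2*, *NR1D2*, *DBP*, and *ARNTL* fell as well with each ligand, and *CRY1* and *BHLHE40* rose. *NR1D1* rose with EGF alone of the 2 ligands (log2 fold change 0.62, adjusted *P* = 2.40e-06, against -0.095, adjusted *P* = 0.469, with NRG-1). For *BHLHE40* with NRG-1 the rise (log2 fold change 0.45, adjusted *P* = 0.0164) was lost on leaving out any 1 of the batch 1 libraries, with adjusted *P* = 0.0592 and 0.0691 without 1 hour replicates 1 and 2 and 0.0532 and 0.0655 without 4 hour replicates 1 and 2. In batch 2 alone its log2 fold change was 0.098.

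EGF and NRG-1 were then compared directly, which asks whether activation of the receptor family from the EGFR side or from the HER3 side left a different clock profile. The ligands differed in 1 of 10 genes at 1 hour and 1 of 10 at 4 hours, beside 1.06% and 1.66% of all genes, and in 0 of 10 at 5 minutes, beside 0% (edgeR; 0 of 10 with unadjusted *P* below 0.05, and 0 with DESeq2 and limma). *PER2* at 1 hour was higher with EGF in all 4 same-numbered pairs (40.9, 43.3, 30.3, and 28.1 CPM against 34.3, 28.3, 25.9, and 19.1 CPM with NRG-1), although the ranges overlapped. The difference was 0.40 on the log2 scale (95% CI 0.21 to 0.60, adjusted *P* = 0.0241). It no longer passed without EGF replicate 1 (adjusted *P* = 0.0692), EGF replicate 2 (0.124), EGF replicate 3 (0.0606), NRG-1 replicate 2 (0.120), or NRG-1 replicate 4 (0.123), nor with limma (adjusted *P* = 0.129 to 0.200). *PER1* was higher with EGF in all 4 pairs too, by 0.25 (95% CI -0.0069 to 0.50), but did not pass (adjusted *P* = 0.600).

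*NR1D1* separated the ligands at 4 hours. Its libraries were at 17.3, 16.2, 14.5, and 13.5 CPM with EGF and 11.4, 11.6, 11.8, and 9.23 CPM with NRG-1, without overlap. The difference was 0.48 on the log2 scale (95% CI 0.29 to 0.67, adjusted *P* = 0.00402), and the ratio was 1.46 in batch 1 and 1.33 in batch 2. At 1 hour the point estimate lay on the side of NRG-1 (-0.24, adjusted *P* = 0.429). The change from 1 hour to 4 hours differed between the ligands for *NR1D1* by 0.72 (interaction term, 95% CI 0.45 to 0.98, adjusted *P* = 0.00332), and it was the 1 gene of 10 with a significant interaction, beside 0.506% of all genes. With limma on log2 TPM, neither the 4 hour difference of *NR1D1* (adjusted *P* = 0.121 to 0.178) nor the interaction (adjusted *P* = 0.450 to 0.606) passed. For *CRY1* at 4 hours the difference was 0.23 (95% CI 0.063 to 0.41, adjusted *P* = 0.199), and for *BHLHE40* it was 0.27 (95% CI -0.033 to 0.57, adjusted *P* = 0.527). *ARNTL* at 4 hours differed by -0.057 (95% CI -0.26 to 0.14) and *DBP* by -0.14 (95% CI -0.34 to 0.054). With the replicate block, *PER2* at 4 hours also passed (log2 difference 0.30, adjusted *P* = 0.00465; 0.141 without it), and 2 rather than 1 of the 10 genes were called.

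**Figure D3:**
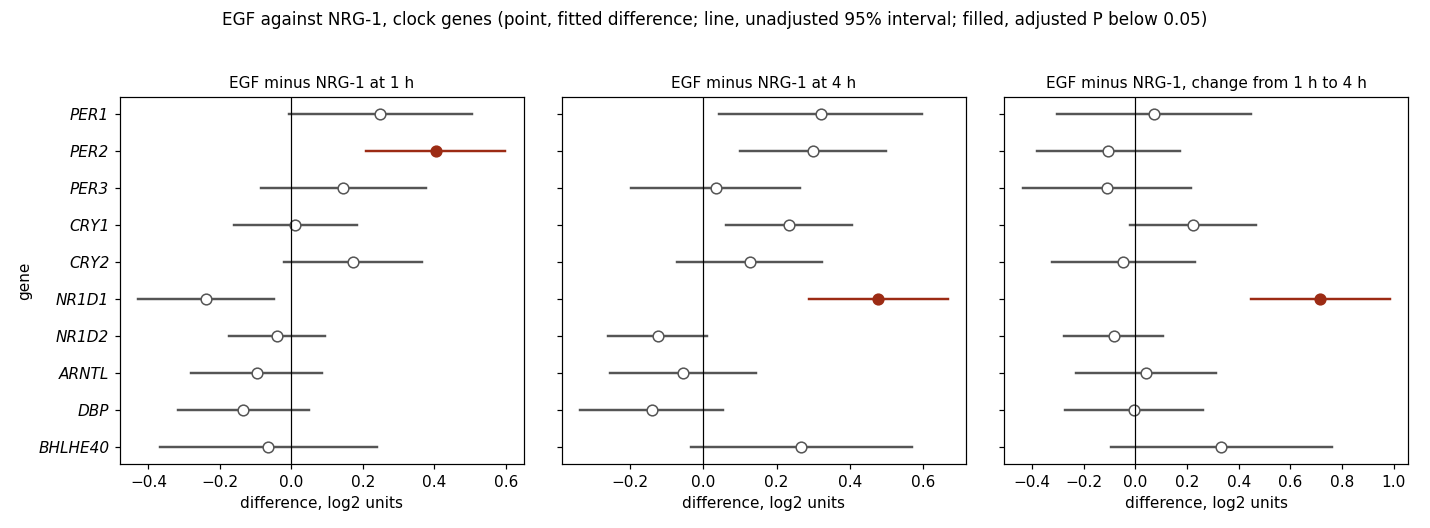
Fitted difference between EGF and NRG-1 (x axis, log2 units, with an unadjusted 95% confidence interval) for each clock gene (y axis) at 1 hour, at 4 hours, and in the change from 1 hour to 4 hours, filled where the adjusted *P* value was below 0.05. *PER2* at 1 hour (0.40), *NR1D1* at 4 hours (0.48), and *NR1D1* in the change over time (0.72) are the filled points.

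Growth in FBS rather than CSS went with a different level of 7 of the 10 genes. The paper describes a wash and a change of medium for the CSS cells and names no such step for the FBS cells. The part of this handling was not tested. In FBS, *DBP*, *BHLHE40*, and *PER1* were higher than in CSS, and *PER3*, *CRY2*, *NR1D2*, and *NR1D1* were lower. That is 3 of 10 higher, beside 26% of all genes, and 4 of 10 lower, beside 26.8%, with a median log2 fold change of 0.014 (all genes, -0.0082). The shares of all genes were of a similar size. *DBP* was at 11.3, 10.7, 9.41, and 10.1 CPM in FBS against 7.69, 8.36, 6.10, and 6.30 CPM in CSS, without overlap (log2 change 0.55, SE 0.087, adjusted *P* = 5.14e-06). *PER3* was at 28.4, 23.3, 23.9, and 19.8 CPM in FBS against 43.0, 44.8, 35.0, and 30.5 CPM in CSS, also without overlap (log2 change -0.67, SE 0.11, adjusted *P* = 1.40e-05), and this was its one significant difference among the 13 comparisons. *CRY2* had a log2 fold change of -0.62 (adjusted *P* = 4.22e-06), *NR1D2* of -0.48 (adjusted *P* = 6.46e-07), and *NR1D1* of -0.35 (adjusted *P* = 0.00304). *BHLHE40* had 0.61 (adjusted *P* = 0.00114) and *PER1* 0.51 (adjusted *P* = 0.00145). With limma on log2 TPM both of these calls were lost in each of 3 fits (*BHLHE40*, log2 fold change 0.37 to 0.40, adjusted *P* = 0.0685 to 0.105; *PER1*, 0.26 to 0.31, adjusted *P* = 0.157 to 0.220). *ARNTL* (10.3 ± 0.596 against 9.64 ± 0.768 CPM), *CRY1* (31.3 ± 0.933 against 29.4 ± 2.55 CPM), and *PER2* (15.9 ± 2.45 against 16.8 ± 3.11 CPM) did not pass.

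Across the 8 groups, *PER1* means ran from EGF at 1 hour (32.3 ± 6.85 CPM) and NRG-1 at 1 hour (27.3 ± 7.44 CPM), whose ranges overlapped, through FBS (14.9 ± 1.85 CPM) to NRG-1 at 4 hours (6.39 ± 0.778 CPM). CSS and both 5 minute groups were neighbors with overlapping ranges. *ARNTL* split into 6 groups with means between 8.82 ± 0.553 and 10.3 ± 0.596 CPM, each overlapping the next, and the pair of 4 hour groups, which overlapped each other and lay below all others. *CRY1* split the same way with the 4 hour pair on top. For *PER3* each group overlapped the next one in order, from NRG-1 at 5 minutes (40.4 ± 8.44 CPM) down to FBS.

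Levels of the genes were also set against one another over the 32 libraries, after batch means were removed from log2 CPM. These correlations describe libraries that share groups and batches. *CRY1* and *ARNTL* ran in opposite directions (*r* = -0.92), as did *CRY1* and *DBP* (*r* = -0.86). So did *NR1D2* and *BHLHE40* (*r* = -0.87) and *NR1D1* and *DBP* (*r* = -0.86). *ARNTL* ran against *NR1D1* (*r* = -0.72) but together with *NR1D2* (*r* = 0.73). *DBP* and *ARNTL* ran together (*r* = 0.86), as did *PER1* and *PER2* (*r* = 0.84) and *PER2* and *CRY2* (*r* = 0.80). *PER3* was nearly unrelated to *PER1* (*r* = -0.040) and to *CRY1* (*r* = 0.022).

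For each clock gene the 3 genes with the most similar pattern over the 8 group means were picked from 12018 others by Pearson correlation of batch-centered log2 CPM. For *PER1* they were *KBTBD2*, *SIAH2*, and *CEBPB* (*r* = 0.991 to 0.986). For *PER2* they were *TNFRSF10B*, *RBM15*, and *LRRC8A* (*r* = 0.999 to 0.988). For *PER3* they were *MSI2*, *NONO*, and *CASZ1* (*r* = 0.998 to 0.996). For *CRY1* they were *BAK1*, *WDR77*, and *SNX22* (*r* = 0.998 to 0.996). For *CRY2* they were *ZFP36L1*, *CIC*, and *USP42* (*r* = 0.991 to 0.990). For *NR1D1* they were *ZNF48*, *RHOG*, and *VPS4A* (*r* = 0.990 to 0.983). For *NR1D2* they were *MAP2K5*, *HIST2H2BF*, and *NBR2* (*r* = 0.997 to 0.995). For *DBP* they were *ALG9*, *PRR15L*, and *MMAA* (*r* = 0.995 to 0.992). For *ARNTL* they were *RANBP3L*, *GCNT2*, and *NREP* (*r* = 0.999 to 0.996). For *BHLHE40* they were *TRPM2*, *DDX56*, and *TXNDC5* (*r* = 0.998 to 0.996). With 8 points and so many genes to choose from, high values of *r* are to be found for any pattern, and they are given as a description.

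The rest of the clock machinery was followed through 24 further genes, of which 23 were tested (*RORB* was too low). At 1 hour, 10 of the 23 were higher with EGF, beside 6% of all genes, and 7 with NRG-1, beside 4.45%, and none was lower (edgeR; 12 of 23 had an unadjusted *P* below 0.05 with each ligand, and DESeq2 called 10 and 8). At 4 hours, 8 were higher and 9 lower with EGF, beside 24.6% and 24.6% of all genes, and 7 higher and 9 lower with NRG-1, beside 21.6% and 21%. In FBS, 7 were higher and 14 lower than in CSS, beside 26% and 26.8% of all genes. Their median log2 fold change was 0.083 at 1 hour of EGF, 0.046 at 1 hour of NRG-1, -0.00035 at 4 hours of EGF, -0.054 at 4 hours of NRG-1, and -0.25 in FBS. With the replicate block, 11 rather than 7 passed at 1 hour of NRG-1.

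*KLF10*, a clock-controlled Krüppel-like factor that growth factors also induce, had the largest rise of them at 1 hour, from 37.2 ± 1.302 CPM in CSS to 347 ± 32.3 CPM with EGF and 311 ± 39.0 CPM with NRG-1. The log2 fold changes were 3.22 and 3.06 (adjusted *P* = 1.92e-21 and 1.03e-20). At 4 hours it was at 117 ± 10.9 CPM with EGF and 68.5 ± 3.24 CPM with NRG-1, and this difference between the ligands was significant (log2 difference 0.77, adjusted *P* = 1.35e-06). *CCRN4L* (nocturnin, now named *NOCT*), a rhythmic phosphatase gene, rose at 1 hour with EGF (1.295 on the log2 scale) and with NRG-1 (1.04) and was still up after 4 hours of EGF (1.20, adjusted *P* = 1.54e-12). *NFIL3*, the D-box repressor that opposes DBP, rose from 18.2 ± 1.55 to 35.5 ± 2.29 CPM at 1 hour of EGF and was at 14.7 ± 0.712 CPM at 4 hours. *WEE1*, a clock-controlled kinase of the cell cycle, went from 38.9 ± 3.24 to 74.7 ± 4.51 and then 29.4 ± 1.91 CPM. At 1 hour *NFIL3* and *WEE1* were higher with EGF than with NRG-1 (log2 difference 0.59 and 0.43, adjusted *P* = 1.34e-06 and 6.97e-05), as was *CIPC*, an inhibitor of CLOCK (log2 difference 0.28, adjusted *P* = 3.51e-04), so that 3 of the 23 differed between the ligands at 1 hour, beside 1.06% of all genes.

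At 4 hours *NPAS2*, which can replace CLOCK as the partner of ARNTL, had the largest rise among the 23, from 4.02 ± 0.557 CPM in CSS to 17.9 ± 2.56 CPM with EGF and 14.3 ± 2.41 CPM with NRG-1. Its log2 fold change was 2.15 with EGF (adjusted *P* = 2.56e-16) and 1.83 with NRG-1 (adjusted *P* = 1.37e-14), so that a partner rose where *ARNTL* fell. *BHLHE41*, the DEC2 paralog of *BHLHE40*, rose from 1.03 ± 0.242 to 3.31 ± 0.456 CPM with EGF and 3.15 ± 0.640 CPM with NRG-1, or by 1.67 and 1.61 on the log2 scale.

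**Figure D4:**
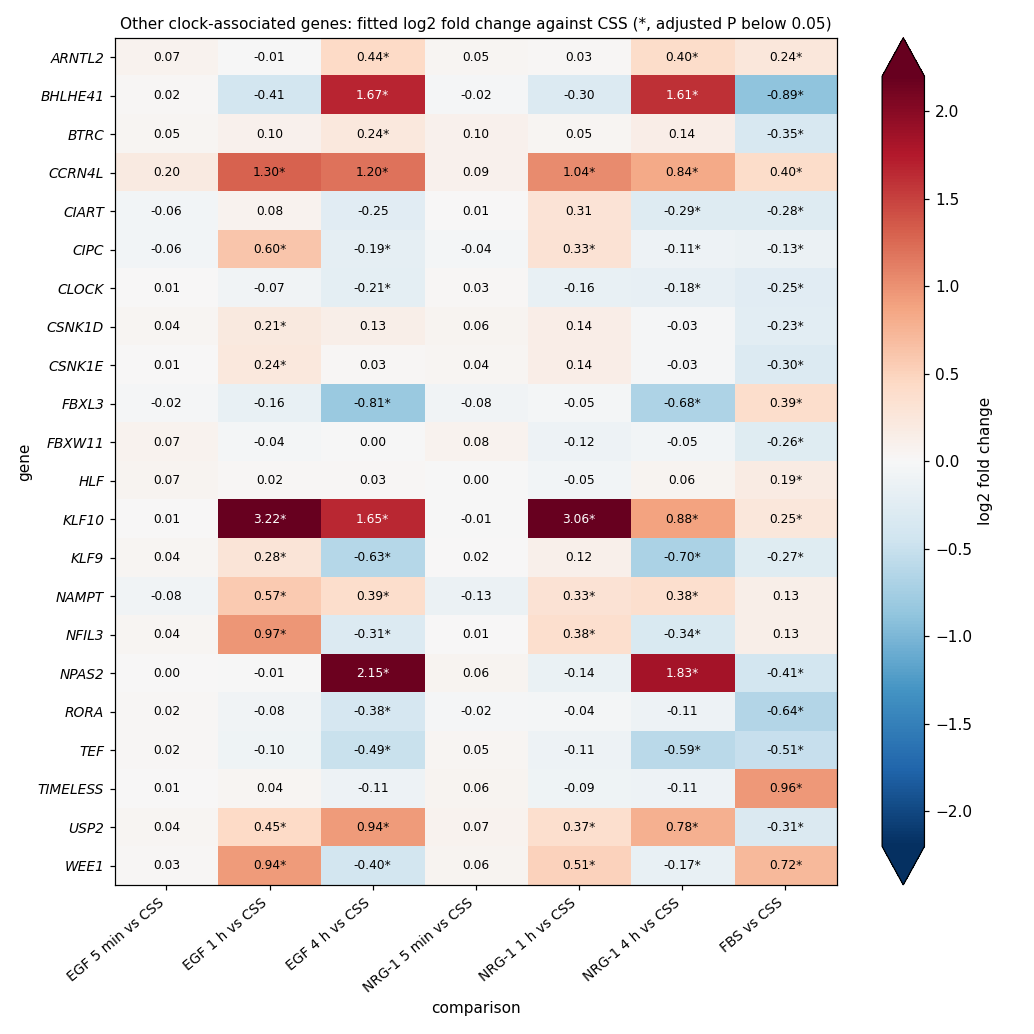
Fitted log2 fold change against CSS of other clock-associated genes tested (rows) for each ligand and time and for FBS (columns), with an asterisk where the adjusted *P* value was below 0.05. *KLF10* is the strongest red at 1 hour, and *NPAS2* and *BHLHE41* turn red at 4 hours.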

How the data were processed

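Poly(A) RNA-Seq libraries from LNCaP cells (32 libraries, 8 groups of 4, 2 batches) were analyzed. The sample titles number 2 replicates of each group within each batch and do not say whether these were independent experiments. The authors trimmed reads with Trimmomatic 0.36 and quantified genes with RSEM and STAR 2.7.0f against hg19 (tools and build from the submitters' processing notes), and the deposited expected counts are estimated reads per gene, not normalized. The deposited TPM values were normalized by the authors for transcript length and library total. No column of values was left unused.

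Expected counts were rounded, a gene entered the test if 3 or more libraries held 5 or more counts of it, and groups were compared with the edgeR 4.0.16 quasi-likelihood test (R 4.3.3, TMM, group and batch terms, all 32 libraries) in 13 comparisons. Benjamini-Hochberg adjustment covered all 16995 genes tested. The SE is the log2 fold change over the square root of the F statistic, and 95% intervals use the t distribution of the fit and are not adjusted. CPM carried a prior count of 0, and log2 CPM for correlations a prior count of 2. The fits were tested on simulated data. After group means were subtracted, libraries with the same number correlated in 112 of 112 pairs of groups (*r* = 0.133 to 0.571). Batch means were left in and each number belongs to 1 batch, so these correlations cannot show a pairing within a batch. Counts of same-numbered pairs and the replicate block rest on the numbers alone. *P* values measure the spread between these replicates of 1 cell line.

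The 10 genes, the lists of other clock genes and of markers, and the rule for naming genes (all 10 members, other clock genes beyond the fold limit in any comparison, apart from 1 that is not reported here, and the 3 most similar genes of each member) were chosen with earlier results of these data known. *CIPC*, *CD68*, and *COL1A1* were named after their values were seen. Alternatives were DESeq2 1.42.0, limma 3.58.1 on log2 TPM (pseudocount 1 or 0.1), other filters and scaling, no batch term, a replicate block, subsets of libraries, and each library left out.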

Additional observations from a re-analysis of the deposited data

Results flagged for a closer look

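One clock gene value stood apart from its group. *PER1* in EGF 5 minute replicate 4 was at 7.77 CPM (7.77086), while the other 3 libraries of that group were between 11.6 and 12.2 CPM. Dixon's test was applied to 80 sets of 4 libraries (10 genes in 8 groups), of which 1 passed, and chance gives about 4 in 80.

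For 3 results the ligands differed by a direct test. *PER2* at 1 hour was higher with EGF than with NRG-1 by 0.404543 on the log2 scale (adjusted *P* = 0.0241, higher in 4 of 4 pairs). *NR1D1* at 4 hours was higher with EGF by 0.477508 (adjusted *P* = 0.00402, higher in 4 of 4 pairs). The change of *NR1D1* from 1 hour to 4 hours differed between the ligands by 0.716028 (adjusted *P* = 0.00332). *NR1D1* overlaps the 3′ end of *THRA* on the opposite strand and had fractional expected counts in all 32 libraries. The paper describes directional libraries and counting that takes the strand into account. The part of read assignment in its values was not tested.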

How the results depend on the processing

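Of 130 values (10 genes in 13 comparisons), 51 passed the test. All 51 kept their direction under the alternatives run, 47 passed in every fit that left out 1 library, and 30 passed under every alternative. No value that passed changed direction. With EGF at 1 hour, 5 genes passed, but 3 without the batch term, 2 in batch 2 alone, and 2 with limma on log2 TPM (each pseudocount, with or without the filter). With NRG-1 at 1 hour, 3 passed, 1 in batch 2 alone, and 5 with the replicate block. The DESeq2 Wald test added *DBP* there (adjusted *P* = 0.0445). At 4 hours against CSS, 8 passed with each ligand, and under the alternatives 6 to 9 did with EGF and 6 to 8 with NRG-1. Between the ligands at 1 hour, 1 passed, and 0 did without the batch term, in the fit of the compared groups alone, in batch 2 alone, and with each limma fit; the count was 0 to 1 when 1 library was left out. Between the ligands at 4 hours, 1 passed, 2 with the replicate block, 3 in batch 1 alone, and 0 without the batch term, in batch 2 alone, and with each limma fit. The interaction passed in 1 gene, and in 0 without the batch term, in batch 2 alone, and with each limma fit. In FBS, 7 passed, and 4 in batch 2 alone. Fits of 1 batch hold 2 libraries per group. The replicate block, apart from the calls given above for *PER2*, *CRY2*, and *DBP*, changed no other call of the 10 genes.

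For the other 23 clock genes, counts moved by more than 1.5 times at 1 hour of NRG-1 (7; 11 with the replicate block, 4 in batch 2 alone) and between the ligands at 4 hours (2; 5 with the block, 4 with DESeq2, 1 with limma or without the batch term, 0 in batch 2 alone). In batch 2 alone they also moved at 1 hour of EGF (10 to 6), 4 hours of EGF (17 to 9), 4 hours of NRG-1 (16 to 9), from 1 to 4 hours (EGF, 15 to 9, and NRG-1, 15 to 8), in FBS (21 to 6), between the ligands at 1 hour (3 to 0), and in the interaction (4 to 0).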
